A study of Mus musculus with 6 samples.

Results

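The genes described here are 10 markers of meningeal fibroblasts, the collagen-making cells of the membranes that cover the brain: Dcn, Lum, Ogn, Fmod, Slc6a13, Slc13a4, Slc22a6, Aldh1a2, Ranbp3l and Islr. They were chosen by gene symbol, all 10 were found among the 22584 genes of the RNA count table, and all 10 had enough counts to be tested. The RNA came from brain tissue of wild-type mice; the sources used here name no strain, age, sex or brain region. It was extracted either with TRIzol, a phenol and guanidine reagent used for the 3 control libraries, or with the AllPrep DNA/RNA/Protein Mini Kit, a column kit used for 3 co-extraction libraries. No label says whether the meninges were left on the brain or whether the 3 libraries of a method came from separate animals, and the spread behind every p-value is that among these libraries and could be purely technical.

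The meninges consist of the outer dura, the arachnoid and the inner pia, and fibroblasts are found in each layer. Meningeal fibroblasts lay down collagen fibrils, make retinoic acid and carry transporters that move solutes between cerebrospinal fluid, blood and brain. Related fibroblasts lie around larger vessels and in the stroma of the choroid plexus. They are a small part of whole brain tissue. In bulk RNA, fewer fibroblasts and less RNA per fibroblast cannot be told apart.

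The promoters of 3 genes are shown, 1 for each main role (matrix, transport and retinoic acid synthesis). These genes varied together across the libraries, and any part of their promoters in that was not tested. Each is the 250 bases before the RefSeq start site in build GRCm38.p6, written 5′ to 3′ on the gene's strand. The positions are chr1:134037004-134037253 on the plus strand for Fmod, chr6:35308127-35308376 on the minus strand for Slc13a4 and chr9:71215539-71215788 on the plus strand for Aldh1a2. Capitals mark an E-box (CANNTG) or a GC box (GGGCGG).
Fmod: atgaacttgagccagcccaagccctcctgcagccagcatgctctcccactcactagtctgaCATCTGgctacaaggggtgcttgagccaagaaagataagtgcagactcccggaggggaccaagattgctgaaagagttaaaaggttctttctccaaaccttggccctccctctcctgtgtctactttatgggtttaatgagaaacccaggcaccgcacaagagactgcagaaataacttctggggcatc
Slc13a4: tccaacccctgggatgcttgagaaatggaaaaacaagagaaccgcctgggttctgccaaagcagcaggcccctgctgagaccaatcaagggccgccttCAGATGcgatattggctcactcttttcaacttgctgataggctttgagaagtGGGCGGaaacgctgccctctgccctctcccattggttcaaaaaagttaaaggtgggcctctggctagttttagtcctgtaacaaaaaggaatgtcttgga
Aldh1a2: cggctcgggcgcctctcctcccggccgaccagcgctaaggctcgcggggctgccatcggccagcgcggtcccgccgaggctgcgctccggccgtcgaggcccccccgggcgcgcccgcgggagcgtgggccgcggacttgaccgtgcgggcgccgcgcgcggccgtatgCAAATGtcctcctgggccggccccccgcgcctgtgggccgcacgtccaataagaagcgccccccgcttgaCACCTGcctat
An E-box stood in the window of 8 of the 8 genes with an entry and in 66.2% of all 32851 promoter windows. A GC box stood in 2 of 8, against 32.7% of all windows, and the TATA sequence (TATAAA) in 1 of 8, that of Ogn, against 12.4%. The FOX sequence (GTAAACA), the T-box sequence (TCACACC) and the retinoic acid receptor sequence (AGGTCA) were not in these windows of the 8 genes, and occurred in 3.17%, 3.33% and 14.0% of all windows. Both strands were searched, and a match is a description of letters only. Dcn and Lum had no entry.

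Library totals ran from 36395330 counts in TRIzol replicate 1 to 50937858 in AllPrep replicate 3. Defining genes of neurons, glia and microglia were present at similar summed levels, from 8427 to 12067 CPM over 10 genes, so the tissue label fits its markers. CPM is a gene's count per 1000000 counts of the library, with totals adjusted by TMM, a scaling that assumes most genes do not differ. Over all 16325 tested genes, the median log2 ratio of TRIzol replicate 1 to the mean of TRIzol replicates 2 and 3 was 0.0026.

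TRIzol replicate 1 had the lowest level of 9 of the 10 genes, and Dcn was the exception. For these 9 genes its level was 25.7% to 57.7% of the mean of TRIzol replicates 2 and 3. TRIzol replicate 1 was the lowest of 6 libraries for 22.2% of all tested genes and 22.9% of those of at least 1 CPM. TRIzol replicates 2 and 3 were lowest for 16.9% and 13.7% of tested genes and AllPrep replicates 1 to 3 for 13.8%, 11.1% and 22.2%, and of the 10 genes only Dcn was lowest in one of these, AllPrep replicate 2. In 8 of the 10 genes the next-lowest library was at least 1.5-fold higher than TRIzol replicate 1, which was so for 2.55% of tested genes and 1.87% of those of at least 1 CPM. In 6 of 10 it was at least 2-fold higher, against 1.10% and 0.681%. TRIzol replicate 1 was at or below 50% of the mean of TRIzol replicates 2 and 3 for 8 of 10, against 3.52% of tested genes. This library had been singled out before these counts were made, so they describe it and carry no test.

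**Figure D1:**
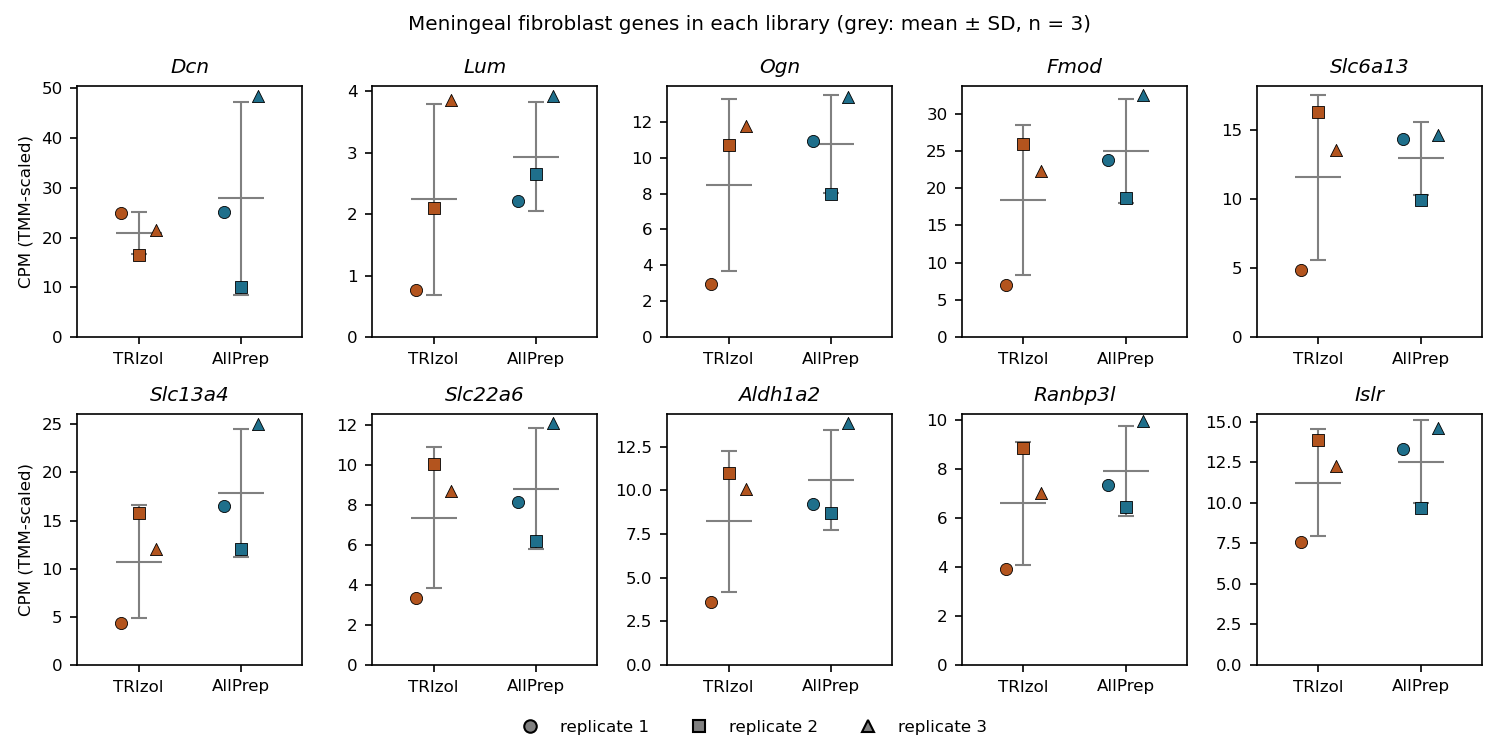
CPM of each of the 10 genes (vertical axes from 0, scales differ between panels) in the 3 TRIzol and 3 AllPrep libraries, with grey bars for mean ± SD (n = 3). TRIzol replicate 1, the orange circle, is the lowest point in 9 panels, and for Dcn it lies at 24.97 CPM, above both other TRIzol libraries.

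Fmod, Lum, Ogn and Dcn encode small leucine-rich proteoglycans, secreted proteins that bind collagen fibrils and control their thickness and spacing. Fibromodulin mRNA (Fmod, ENSMUSG00000041559) was at 6.95, 25.9 and 22.3 CPM in TRIzol replicates 1 to 3 and at 23.8, 18.7 and 32.4 CPM in AllPrep replicates 1 to 3. TRIzol replicate 1 thus stood apart from 5 libraries that lay within a 1.73-fold range. Its counting interval, 5.79 to 8.27 CPM, ended far below the next-lowest library.

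Osteoglycin mRNA (Ogn, ENSMUSG00000021390) was at 2.95, 10.7 and 11.7 CPM in TRIzol and at 10.9, 7.96 and 13.4 CPM in AllPrep. Lumican mRNA (Lum, ENSMUSG00000036446), the least abundant of the genes, was at 0.766, 2.09 and 3.86 CPM in TRIzol and at 2.22, 2.65 and 3.92 CPM in AllPrep. Both had their lowest value in TRIzol replicate 1 and their highest in AllPrep replicate 3, and the ranges of the methods overlapped. For Lum the value in TRIzol replicate 1 rested on 28 counts (0.419 to 1.29 CPM), and TRIzol replicates 2 and 3 also differed 1.84-fold from each other, the widest gap between those libraries among the 10 genes.

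Decorin mRNA (Dcn, ENSMUSG00000019929) followed another order. It was at 24.97, 16.5 and 21.5 CPM in TRIzol and at 25.3, 10.04 and 48.5 CPM in AllPrep. TRIzol replicate 1 was the highest TRIzol library, at 131% of the mean of the others, and the lowest library was AllPrep replicate 2. Dcn made up 39.4% of the summed CPM of the 10 genes in TRIzol replicate 1, against 10.9% to 25.7% in the other 5 libraries. Its 4.83-fold range over the AllPrep libraries was also the widest of the 10 genes once TRIzol replicate 1 was set aside, where the other 9 spanned 1.51-fold to 2.09-fold.

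Slc6a13, Slc13a4 and Slc22a6 encode membrane transporters, for GABA and taurine, for sulfate and for organic anions such as drugs and metabolites. Slc6a13 (ENSMUSG00000030108) was at 4.87, 16.4 and 13.6 CPM in TRIzol and at 14.4, 9.93 and 14.6 CPM in AllPrep. Slc13a4 (ENSMUSG00000029843) was at 4.38, 15.8 and 12.1 CPM in TRIzol and at 16.5, 12.0 and 25.1 CPM in AllPrep. Slc22a6 (ENSMUSG00000024650) was at 3.36, 10.1 and 8.70 CPM in TRIzol and at 8.15, 6.19 and 12.1 CPM in AllPrep. All 3 were lowest in TRIzol replicate 1, with log2 ratios to the mean of the other TRIzol libraries of -1.62, -1.67 and -1.48. AllPrep replicate 2 came next in each, at 2.04-fold, 2.74-fold and 1.84-fold the level of TRIzol replicate 1.

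Aldh1a2 (ENSMUSG00000013584) encodes the retinaldehyde dehydrogenase that makes retinoic acid in the meninges. It was at 3.61, 11.003 and 10.1 CPM in TRIzol and at 9.21, 8.71 and 13.9 CPM in AllPrep, so that the other 5 libraries lay within a 1.59-fold range and TRIzol replicate 1 was 2.41-fold below the lowest of them. Ranbp3l (ENSMUSG00000048424), a nuclear export factor that binds Ran, was at 3.91, 8.86 and 7.03 CPM in TRIzol and at 7.35, 6.45 and 9.96 CPM in AllPrep. Islr (ENSMUSG00000037206), a secreted leucine-rich repeat protein of stromal cells, was at 7.55, 13.9 and 12.3 CPM in TRIzol and at 13.3, 9.66 and 14.6 CPM in AllPrep. Islr had the smallest shortfall of the 9 genes, 1.73-fold against the mean of the other TRIzol libraries, and it alone of the 9 had a counting interval (6.34 to 8.92 CPM) that reached that of the next-lowest library. The intervals of the other 8 did not. All these intervals are exact 95% Poisson limits on read pairs, taken as counts divided by 2, and cover counting error only.

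**Figure D2:**
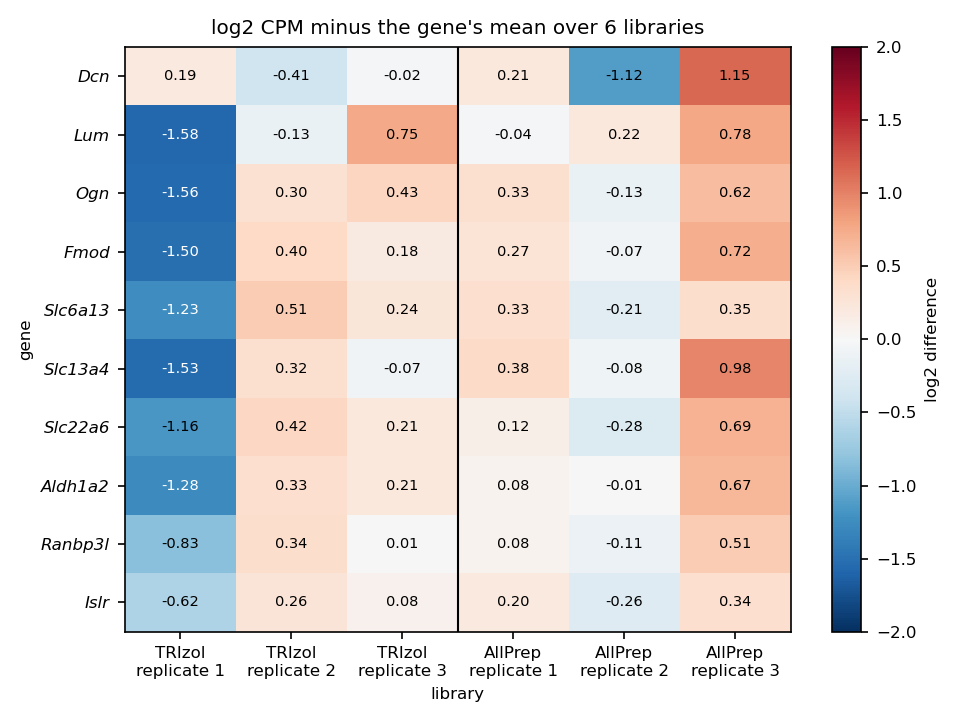
Log2 CPM of each gene (rows) in each library (columns) minus that gene's mean over the 6 libraries, with blue for lower and red for higher. The column of TRIzol replicate 1 is blue for 9 genes, from -0.62 for Islr to -1.58 for Lum, and 0.19 for Dcn, while AllPrep replicate 3 is red throughout, from 0.34 to 1.15.

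The libraries also differed beyond TRIzol replicate 1. AllPrep replicate 3 was the highest of the 6 for 9 of the 10 genes, against 21.6% of tested genes, and TRIzol replicate 2 was highest for Slc6a13. Among the 5 libraries without TRIzol replicate 1, AllPrep replicate 2 was lowest for 9 of the 10 genes, against 14.0% of tested genes, and TRIzol replicate 2 was lowest for Lum. The steps were smaller than that of TRIzol replicate 1. The mean centred log2 level over the 10 genes was -1.11 in TRIzol replicate 1, 0.23 and 0.20 in TRIzol replicates 2 and 3, and 0.19, -0.20 and 0.68 in AllPrep replicates 1 to 3. Leaving out Dcn, a choice made after its values were seen, the summed CPM was 38.3, 114.7 and 101.7 in TRIzol and 105.9, 82.3 and 140.1 in AllPrep.

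Levels were compared between genes after scaling by the longest annotated transcript. Fmod had the highest mean over the 6 libraries, 6.95 CPM per kilobase (2.23 to 10.4), followed by Slc6a13 at 5.50 (2.18 to 7.32), Islr at 5.35 (3.40 to 6.58) and Dcn at 5.21 (2.14 to 10.3). Slc13a4 and Aldh1a2 had 4.17 and 4.16 CPM per kilobase and Ogn had 3.74. Ranbp3l had 2.14, Slc22a6 2.03 and Lum 1.1 CPM per kilobase (0.313 to 1.6 for Lum). The ranges of neighbours in this order overlapped throughout, while those of Fmod and Lum, at its ends, did not.

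The design's own comparison asked whether the kit and TRIzol yield the same levels. None of the 10 genes passed edgeR's quasi-likelihood test at an adjusted p below 0.05, where 3.80% of tested genes did (2.52% higher and 1.28% lower in AllPrep), and 0 had an unadjusted p below 0.05, against 25.8% of tested genes. DESeq2 and limma-voom also called 0 of the 10, against 12.8% and 3.94% of tested genes. No gene separated the methods: the AllPrep and TRIzol libraries overlapped for all 10, whereas AllPrep lay wholly above TRIzol for 16.0% of tested genes and wholly below for 17.1%. All 10 log2 fold changes (AllPrep over TRIzol) were positive, with a median of 0.35 against -0.011 over all tested genes, of which 48.5% were positive. The largest was that of Slc13a4, 17.9 ± 6.64 CPM in AllPrep (SD, n = 3) against 10.7 ± 5.82 CPM in TRIzol (SD, n = 3), a log2 fold change of 0.73 ± 0.44 (SE, with adjusted p = 0.34 by edgeR). For Fmod the means were 24.999 ± 6.93 and 18.4 ± 10.1 CPM (0.44 ± 0.43 on the log2 scale, with adjusted p = 0.56 by edgeR), and for Islr 12.5 ± 2.57 and 11.2 ± 3.29 CPM (0.16 ± 0.24 on the log2 scale, with adjusted p = 0.71 by edgeR).

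Of these 10 positive values, 6 turned negative without TRIzol replicate 1. Without it the median log2 fold change of the 10 genes was -0.011, 4 values were positive and 6 negative, and the lowest adjusted p was 0.52 in edgeR. Without AllPrep replicate 3, the library with the highest level of 9 genes, the median was 0.090. Limma intervals, which come from log2 CPM with a prior count of 2, narrowed for 9 genes and not for Dcn. For Fmod the 95% interval of the log2 fold change went from -0.48 to 1.71 with all 6 libraries, and from -0.51 to 0.55 without TRIzol replicate 1. For Aldh1a2 the limits were -0.47 and 1.45, then -0.53 and 0.49, and for Ogn -0.61 and 1.70, then -0.61 and 0.43. For Dcn they were -1.0 and 1.32, then -1.12 and 1.71. The summed CPM of the 10 genes was 105.9 ± 37.1 in TRIzol and 137.3 ± 48.4 in AllPrep (exact permutation test, two-sided, p = 0.5, where 3 against 3 libraries cannot go below 0.1).

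**Figure D3:**
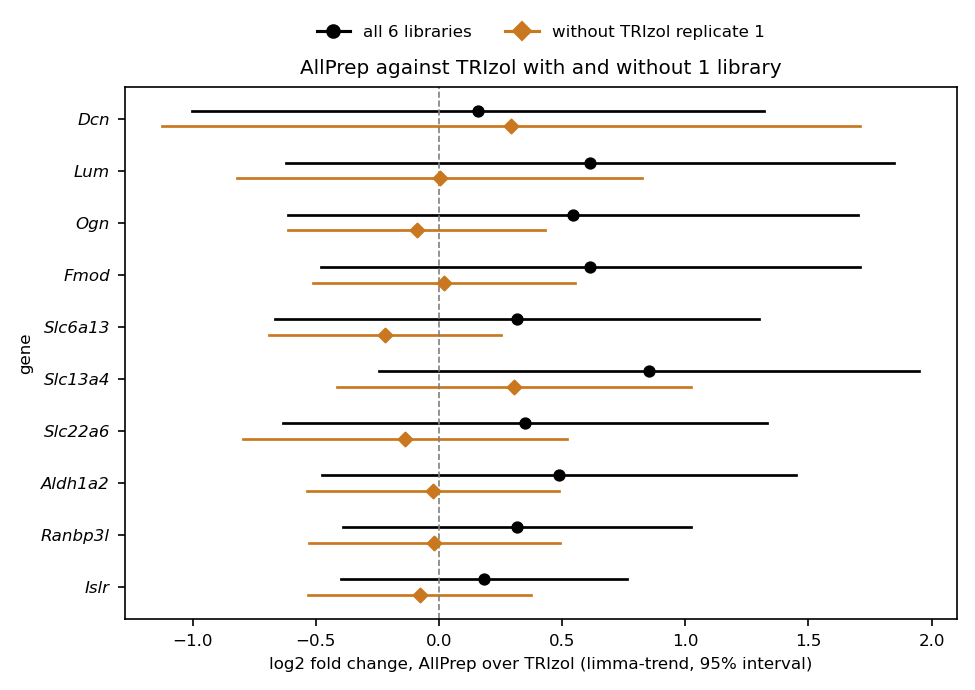
Log2 fold change, AllPrep over TRIzol, with its 95% interval from limma for each gene, with all 6 libraries (black circles) and without TRIzol replicate 1 (orange diamonds). Every interval includes 0, and without that library the points of all genes but Dcn, Slc6a13 and Slc13a4 lie between -0.14 and 0.02.

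Most other genes known from meningeal and perivascular fibroblasts were also lowest in TRIzol replicate 1. Of 28 such genes, none of them among the 10, all 28 were below the mean of the 5 other libraries in it, against 50.1% of tested genes, and 21 of 28 were lowest in it. The share lowest in it over all tested genes was 22.2%. In 11 of 28 the next library was at least 1.5-fold higher, against 2.55% of tested genes. Col1a1, a chain of type I collagen, was at 3.72 CPM in TRIzol replicate 1 and at 8.02 to 14.2 CPM in the other 5 libraries. Serping1, the inhibitor of complement component C1, was at 2.82 CPM against 7.09 to 9.16 CPM, and Slc47a1, an organic cation exporter, at 1.12 against 2.44 to 5.37 CPM. Igf2, an insulin-like growth factor of the meninges, was at 0.0547 CPM, or 2 counts, against 0.383 to 1.56 CPM. These 4 were named after their values were seen. The 7 genes not lowest there were Igfbp2, Ccn3, Foxc1, Osr1, Cemip, Moxd1 and Mfap5. Of these, Ccn3, a secreted matricellular protein and the most abundant of the 28, was at 110 CPM in TRIzol replicate 1. The other TRIzol libraries had 70.7 and 74.5 CPM, and Ccn3 fell below the mean of the 5 only through AllPrep replicate 3, at 226 CPM. Moxd1, at 9.27 CPM, was above the other TRIzol libraries, at 5.51 and 8.70 CPM, and below AllPrep, at 10.4 to 20.1 CPM. Foxc1, a transcription factor of meningeal development, was at 3.86 CPM against 3.78 and 5.08 CPM in the other TRIzol libraries.

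Between the methods, 0 of the 28 genes were called by edgeR and 0 by limma-voom, and 2 by DESeq2. An unadjusted p below 0.05 in edgeR was found for 4 of 28, against 25.8% of tested genes. The median log2 fold change was 0.34, and 0.052 without TRIzol replicate 1. The smallest p-values were those of Igfbp2 and Moxd1, with log2 fold changes of 0.46 and 0.87 and adjusted p = 0.10 and 0.11 in edgeR. The summed CPM was 260.6 ± 27.3 in TRIzol and 346.0 ± 107 in AllPrep (exact permutation test, two-sided, p = 0.2). Ccn3 alone, at 85.1 ± 21.7 CPM in TRIzol and 136.7 ± 77.6 CPM in AllPrep, was the largest part of these sums.

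The genes that work beside the 10 were less uniform. The counts in the lists that follow stand beside these shares of all tested genes: 22.2% were lowest in TRIzol replicate 1 and 3.80% were called by edgeR. A further share, 25.8%, had an unadjusted p below 0.05 in edgeR. Bgn, Slc47a1 and Crabp2 in the lists that follow are also among the 28. Among 9 tested proteoglycans of the same family, 5 were lowest in TRIzol replicate 1, 0 were called by edgeR or limma-voom and 1 by DESeq2, and 2 had an unadjusted p below 0.05 in edgeR (median log2 fold change 0.10). Omd, osteomodulin, was at 0.328 CPM in TRIzol replicate 1 against 0.903 to 1.88 CPM in the others, named after its values were seen. Bgn, biglycan, was at 8.59 CPM against 12.4 to 20.6 CPM. Prelp, a proteoglycan of basement membranes, was higher in every AllPrep library than in any TRIzol library, though it did not pass, with 10.9, 11.7 and 17.7 CPM in TRIzol and 26.6, 22.2 and 35.8 CPM in AllPrep (log2 fold change 1.07, adjusted p = 0.052 in edgeR). Of 20 genes of collagen fibrils and their processing, 4 of which were also among the 28, 9 were lowest in TRIzol replicate 1 and 1 was called. That gene, Col5a1, was lower in AllPrep, at 15.9, 11.3 and 17.04 CPM against 24.6, 28.0 and 30.2 CPM (log2 fold change -0.90, adjusted p = 0.035 in edgeR), and without TRIzol replicate 1 the value was -0.98 with adjusted p = 0.058, a setting with fewer libraries in which calls over all genes went from 621 to 147. Loxl1, a collagen cross-linking enzyme, had the next-smallest p (log2 fold change 0.61). The most abundant of the 20, P4ha1, an enzyme of collagen synthesis, and Fn1, fibronectin, had values of -0.070 and 0.24, and all 3 missed the threshold.

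Among 5 related carriers of GABA, taurine and creatine, 4 were lowest in TRIzol replicate 1 and 1 was called, the taurine carrier Slc6a6, at 116, 129 and 129 CPM in TRIzol and 163, 169 and 158 CPM in AllPrep (log2 fold change 0.39, adjusted p = 0.039 in edgeR). Without TRIzol replicate 1 the value was 0.34 with adjusted p = 0.071 in edgeR. Slc6a12, the betaine and GABA carrier closest to Slc6a13, was at 0.711 CPM in TRIzol replicate 1 and at 1.83 to 3.42 CPM elsewhere, a gene named after its values were seen, while Slc6a11, an abundant GABA carrier of astrocytes, was at 175 against 240 to 444 CPM. Of 8 tested sulfate, dicarboxylate and organic anion carriers, 6 were lowest in TRIzol replicate 1 and 0 were called by edgeR, DESeq2 or limma-voom, with 0 at an unadjusted p below 0.05 (median log2 fold change 0.087). Slc22a8, an organic anion transporter related to Slc22a6, was at 15.2 CPM against 19.2 to 24.9 CPM, and Slc13a3, a dicarboxylate carrier, at 12.8 against 18.6 to 25.8 CPM. Slc26a2, another sulfate carrier, and Abcc4, an efflux pump, missed the threshold, at 0.30 and 0.21 on the log2 scale.

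Of 17 genes of retinoic acid synthesis, binding, breakdown and sensing, 3 were lowest in TRIzol replicate 1 and 1 was called (median log2 fold change 0.20). Over all tested genes these shares were 22.2% and 3.80%, so neither count stands out. The retinoic acid binding protein gene Crabp1 rose from 0.383, 0.255 and 0.175 CPM in TRIzol to 1.22, 0.903 and 1.32 CPM in AllPrep (log2 fold change 2.09, adjusted p = 0.033 in edgeR). Its TRIzol values rest on few counts. Without TRIzol replicate 1, its highest TRIzol library, the value was 2.42 with adjusted p = 0.051 in edgeR. Its relative Crabp2 was at 1.09 CPM in TRIzol replicate 1 and at 2.22 to 3.45 CPM elsewhere, again named after its values were seen. Aldh1a1, which encodes another retinaldehyde dehydrogenase, known from dopamine neurons and blood vessels, was at 54.2, 217 and 113 CPM in TRIzol and at 93.5, 71.7 and 33.7 CPM in AllPrep, an order unlike that of Aldh1a2. Rxrb, a retinoid receptor, was at -0.040 on the log2 scale and did not pass.

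Markers of other cells that lie in or near the meninges did not all move with the fibroblast genes. Of 9 tested markers of border-associated macrophages, which live in the meninges and around vessels, all 9 were below the mean of the 5 other libraries in TRIzol replicate 1, 6 were lowest in it and 4 of these were at least 2-fold below the next library. Their summed CPM was 16.4 in that library, 24.9 and 22.2 in the other TRIzol libraries and 25.8 to 28.3 in AllPrep. Mrc1, the mannose receptor, was at 1.34 CPM against 2.76 to 3.66 CPM. Lyve1 was at 0.109 CPM against 0.562 to 0.960 CPM, and Pf4 at 0.0547 against 0.255 to 0.498 CPM. Both were among those 4, rest on few counts in TRIzol replicate 1 and were named after their values were seen. Cd163 was at 2.05 CPM and was lowest in TRIzol replicate 3, at 1.12 CPM. Stab1, the most abundant, was at 11.5 against 14.4 to 17.2 CPM. Their part in the result was not tested. Between the methods 0 of 9 were called by edgeR, DESeq2 or limma-voom, 1 had an unadjusted p below 0.05 in edgeR, and the median log2 fold change was 0.45.

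Summed vessel markers lay within the range of the other libraries, although Myh11 and Acta2, both of smooth muscle, were lowest in TRIzol replicate 1. The summed CPM of pericyte and smooth muscle markers was 262.3 in TRIzol replicate 1, within the 234.1 to 306.2 of the other 5 libraries. In that library 3 of 9 tested were lowest, against 22.2% of all tested genes, and 1 of these by at least 1.5-fold. That gene was Myh11, smooth muscle myosin, at 10.1 CPM against 17.2 to 28.4 CPM (next library 1.71-fold higher), named after its values were seen. Acta2, smooth muscle actin, was at 9.57 CPM against 13.6 to 27.8 CPM (1.42-fold), and the part of smooth muscle in the result was not tested. In the same library Rgs5 and Vtn, pericyte genes, were at 125 and 75.0 CPM against 91.6 to 123 and 67.2 to 81.5 CPM, and Higd1b was highest in TRIzol replicate 1 at 2.79 CPM. Endothelial markers summed to 275.3 CPM, within 259.0 to 342.9 CPM. Of these 10, 4 were lowest in TRIzol replicate 1, against 22.2% of tested genes, none by 1.5-fold. Flt1, Slco1a4 and Adgrl4 were at 60.3, 54.9 and 15.7 CPM there, against 60.1 to 97.4, 45.3 to 59.6 and 17.3 to 25.5 CPM. Of both lists edgeR and limma-voom called 0 genes and DESeq2 called 1 of each, with 1 of each at an unadjusted p below 0.05 in edgeR (median log2 fold changes 0.15 and 0.094).

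**Figure D4:**
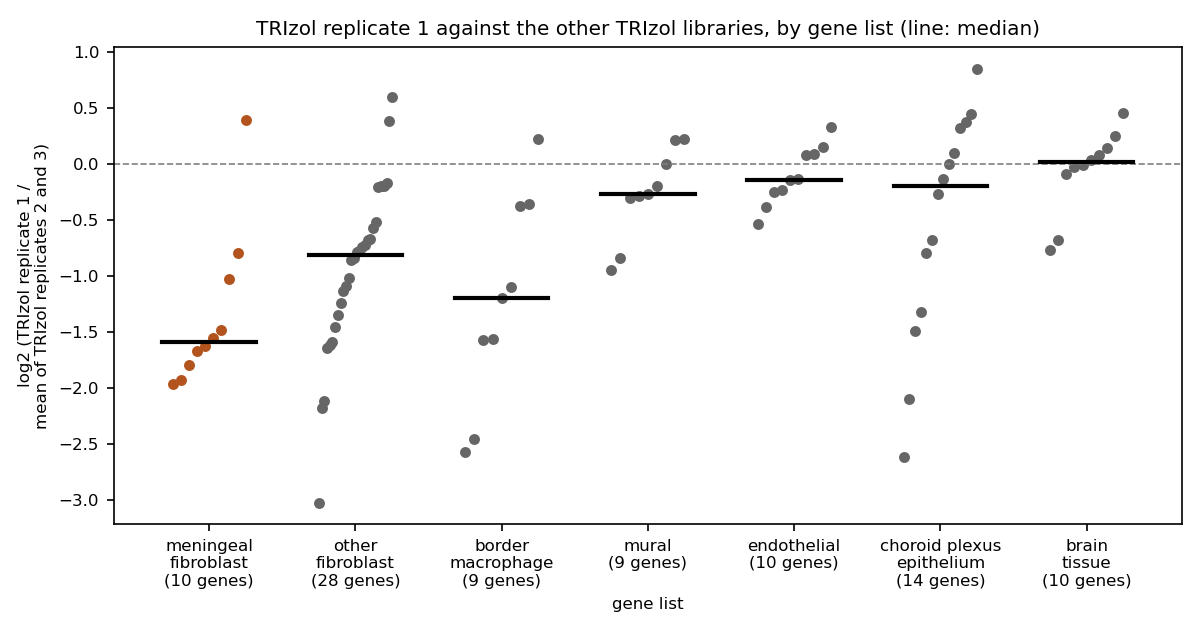
Log2 ratio of TRIzol replicate 1 to the mean of TRIzol replicates 2 and 3 for each tested gene of 7 lists (points), with the median of each list as a black line. The median was -1.58 for the 10 meningeal fibroblast genes, -0.81 for other fibroblast genes and -1.20 for border macrophage markers, and between -0.27 and 0.014 for mural, endothelial, choroid plexus and brain tissue genes. The macrophage median is the value of a scarce gene, Ms4a7, at 0.164 CPM in TRIzol replicate 1. Stab1, the most abundant of that list, was at -0.36.

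Markers of choroid plexus epithelium, whose stroma also holds fibroblasts, separated the methods. Of 14, 13 were called higher in AllPrep by edgeR (median log2 fold change 3.83), against 2.52% of tested genes. TRIzol replicate 1 was also lowest for 8 of 14, against 22.2% of tested genes, and for 3 of these by at least 2-fold. The smallest p-values were those of Ttr (log2 fold change 5.83, adjusted p = 0.0024 in edgeR) and Calml4 (4.71, adjusted p = 0.012 in edgeR), and the most abundant were Ttr and Kl. Without TRIzol replicate 1, 8 of 14 were called and the median was 3.88. Otx2 did not pass. Their summed CPM was 25.5, 43.0 and 31.3 in TRIzol and 665.5 to 1338 in AllPrep. The 10 fibroblast genes did not follow this split, since the libraries of the methods overlapped for each of them. In AllPrep replicate 3, where 9 of the 10 were highest, the choroid plexus sum was also highest, and the relation of these was not tested.

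Markers of tissue around the brain were mostly scarce, but a single gene made up most of the sum of each list. These genes, Dmp1, Acta1, Frzb and Hba-a1, were not scarcer than the 10 genes. Their TRIzol means were 9.34, 6.36, 13.8 and 10.7 CPM, where those of the 10 genes ran from 2.24 (Lum) to 20.99 CPM (Dcn). Of 5 bone markers, 2 were tested, Sp7 and Dmp1, and their list summed to 8.44 to 12.3 CPM. Of 6 muscle and skin markers, 2 were tested, Acta1 and Mylpf (list sum 6.47 to 8.45 CPM, highest in TRIzol replicate 1), and of 5 olfactory ensheathing and Schwann cell markers 2, Frzb and Mybpc1 (17.1 to 29.2 CPM). Of 5 red blood cell genes found, 3 were tested, and their list summed to 17.2 CPM in TRIzol replicate 1 against 9.04 to 17.5 CPM elsewhere, with Hba-a1, which shares near-identical sequence with Hba-a2, at 12.8 and Hbb-bt at 3.23 CPM in that library. No gene of these 4 lists was called by edgeR, DESeq2 or limma-voom, none had an unadjusted p below 0.05 in edgeR, and none of those tested was lowest in TRIzol replicate 1. Among the 10 brain tissue genes, edgeR and limma-voom called 0 and DESeq2 3, with 4 at an unadjusted p below 0.05 in edgeR (median log2 fold change -0.019). Snap25, the most abundant, and Csf1r and Cx3cr1, those with the smallest p, were at -0.39, 0.22 and 0.30 on the log2 scale and did not pass.

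The genes whose pattern over the 6 libraries was most like the mean of the 10 were sought among 13577 other named genes of at least 1 CPM. Likeness was the mean absolute difference of centred log2 CPM. The closest 8, in order, were Col1a1 (0.11), Gpr182 (0.12), Gjb2 (0.13), Eya2 (0.14), Mrc1 (0.15), Pm20d2 (0.16), Slc6a20a (0.16) and Cped1 (0.16). Col1a1, Gjb2, a gap junction protein, and Cped1 were in the list of other fibroblast genes and Mrc1 in that of border macrophages. The 4 others were in no list used here. Slc6a20a, a proline carrier, was at 7.33 CPM in TRIzol replicate 1 and at 13.7 to 19.8 CPM in the others. Among the 10 themselves, Slc22a6 (0.068) and Aldh1a2 (0.10) lay closest to their shared mean, which includes them, and Lum (0.35) and Dcn (0.59) farthest. Of the 13577 other genes, 12581 lay closer to that mean than Dcn and 947 closer than Lum, against 0 to 90 for the remaining members. The genes nearest to Dcn alone, a search added after its values were seen, were Crym, a thyroid hormone binding protein (0.19), and Col23a1, a membrane collagen (0.24). Crym was at 89.6, 54.2 and 62.4 CPM in TRIzol and at 72.5, 44.7 and 135 CPM in AllPrep.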

How the data were processed

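RNA was measured in 6 libraries of mouse brain, grouped by title. Amplification was by T7 in vitro transcription and sequencing was done as paired reads of 150 bases, per the labels' protocols. The authors deposited raw counts per gene, not normalized. The submitters' processing notes name build GRCm39, STAR 2.7.9a, featureCounts, FastQC 0.11.9, limma 3.60.6 and cutadapt. Strand and multi-mapping settings: not given in the sources used here. Of 22692 rows, 108 that repeated an Ensembl ID with identical counts were removed. Even values made up 64.2% to 70.9% of the counts between 1 and 20, so that read pairs may have been counted by their 2 reads. Libraries of one method differed beyond sampling noise in every pair (lowest chi-square over its degrees of freedom 13.6).

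The test was edgeR 4.0.16 under R 4.3.3 (filterByExpr, TMM, quasi-likelihood F-test, two-sided, Benjamini-Hochberg over all tested genes), without the replicate number. The SE is the log2 fold change divided by the square root of F. Intervals came from limma 3.58.1. The edgeR step was also run on simulated counts, drawn gene by gene, with changes placed between the methods. They held no single library low for many genes together, and the outcome is not reported here. Alternatives were DESeq2 1.42.0, limma-voom, other scalings and filters, halved counts, a replicate block and each library left out. Summed levels were compared with an exact permutation test. Transcript lengths were from GENCODE vM21 (GRCm38), promoters from RefSeq.

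The members and the 15 other gene lists were chosen with earlier results of these data known. By rule, each list's 2 genes of lowest p and 2 of highest mean CPM are named, as are the 8 genes most like the members. A few genes this rule names are not reported here. Others are said to be named after their values were seen. Of 169 listed genes, 168 were found by symbol.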

Additional observations from a re-analysis of the deposited data

How the results depend on the processing

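No alternative called any of the 10 genes: the lowest adjusted p for a member over 14 alternatives was 0.20, and the count of members called was 0 in each. The median log2 fold change of the members, 0.35, ranged from 0.31 to 0.41 over the 8 alternatives in tool, scaling, filter, halved counts and block, and from -0.011 (without TRIzol replicate 1) to 0.53 with each library left out. Of 140 member values under alternatives, 132 kept their direction and 8 reversed. Without TRIzol replicate 1 the log2 fold changes were -0.022 for Lum, -0.059 for Ogn, -0.20 for Slc6a13, -0.083 for Slc22a6, -0.00042 for Ranbp3l and -0.058 for Islr. Without AllPrep replicate 3 they were -0.25 for Dcn and -0.041 for Slc22a6. With each library left out in turn, the highest values of these 7 were 0.81 for Dcn, 1.04 for Lum, 0.66 for Ogn, 0.48 for Slc6a13, 0.54 for Slc22a6, 0.53 for Ranbp3l and 0.33 for Islr. The other 3 kept their sign, Slc13a4 between 0.36, when TRIzol replicate 1 was left out, and 1.11, Fmod from 0.054 to 0.76 and Aldh1a2 from 0.0096 to 0.62.

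The low level in TRIzol replicate 1 moved little: the median log2 ratio to the mean of the 5 other libraries was -1.53, and -1.61 to -1.46 over 10 alternatives, and that to TRIzol replicates 2 and 3 was -1.58, and -1.60 to -1.47 over 7. TRIzol replicate 1 was lowest for 9 members in each. A prior count of 0.5 was added after seeing the data. The summed CPM of the members was higher in AllPrep by 31.5. It was higher by 5.85 without AllPrep replicate 3, 10.2 without TRIzol replicate 1 and at most 54.0 without AllPrep replicate 2. For the 28 other fibroblast genes it was higher by 85.4, and by 23.7 (without AllPrep replicate 3) to 120.4. Ccn3 was the largest part of that sum.

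Over all tested genes, 621 were called, against 2095 with DESeq2 and 2 to 205 with a library left out. The replicate block called 236 genes and 0 of the 10, and the members' median with the replicate block was 0.41. The replicate number was left out of the main test because no label says what it marks. Deviations of libraries of the same number had r = -0.048, 0.0063 and 0.16 for numbers 1 to 3, and those of unlike numbers -0.17 to 0.20. At these depths each member had at least 28 counts in every library, and changes of small size between 3 and 3 libraries could not be detected.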
